A study of Homo sapiens with 8 samples.

Results

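CDKN1A, which encodes the CDK inhibitor p21, was studied in LP-1 cells together with 9 further genes that set the passage from G1 to S phase: the inhibitors CDKN1B, CDKN2C and CDKN2D, the cyclins CCND1, CCND2, CCND3 and CCNE1, and the kinases CDK4 and CDK6. These are 10 of the 63102 genes with a value in every library, and they were found by gene symbol. CDKN1A was chosen by its increase with CPI203 in earlier results of these data, so its values in that comparison, and in the difference between the compounds, are a description with no p-value. The other 9 were chosen as its family with those results known, and whether their own values entered that choice is not recorded. Their p-values come from the fit over all genes and are no independent support for the choice.

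RNA-seq was carried out on LP-1, an established human multiple myeloma cell line, after 6 hr with SGC-CBP30 at 2.5 μM, with CPI203 at 250 nM, or with DMSO as the vehicle. SGC-CBP30 binds the bromodomains of the histone acetyltransferases CBP and EP300, and CPI203 binds those of the BET proteins. There were 2 libraries in each of 4 groups, and each compound had DMSO libraries from its own library series (4 libraries per experiment), so that the experiment and the compound cannot be told apart where treated groups are compared without their own controls. All groups were the same line, and the doses of the compounds were not matched. Values were RPKM, reads scaled to gene length and to the mapped reads of the library, and the steps between low values gave an estimated depth of 26000000 to 49700000 reads per library. A single read on a transcript of 2000 bases then corresponded to 0.0101 to 0.0192 RPKM. Of 9 plasma cell markers, 8 averaged 1 RPKM or more, and the summed level of the list was 904.6 to 931.4 with SGC-CBP30 against 1224.2 to 1273.2 in its DMSO, and 828.8 to 842.6 with CPI203 against 1318.7 to 1333.1. The marker lists of B, T, myeloid, erythroid, epithelial, and fibroblast and endothelial cells each summed to at most 3.55 in any library. The highest sum was that of the erythroid list, in which HBB averaged 1 RPKM or more. In bulk RNA, fewer cells expressing a gene and less RNA per cell cannot be told apart.

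In G1, D-type cyclins bind and activate CDK4 and CDK6, which phosphorylate the retinoblastoma protein and so free E2F factors to switch on genes of S phase. Cyclin E with CDK2 completes that step. INK4 proteins (p18 from CDKN2C, p19 from CDKN2D) bind CDK4 and CDK6 themselves and keep cyclin D away, whereas Cip/Kip proteins (p21 from CDKN1A, p27 from CDKN1B) bind cyclin-CDK complexes and inhibit CDK2 in particular. Myeloma cells commonly express a D-type cyclin at a high level, and in tumors with a t(4;14) translocation this is often CCND2.

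RefSeq promoter sequence (GRCh38.p14) was given for 8 of the 10 genes, with 13 annotated starts in all, and 300 bases around each start were searched on both strands for 5 motifs. Upstream stretches are printed for CDKN1A and CDKN2D, which had the largest changes, for CCNE1, which was lower with SGC-CBP30 and not with CPI203, and for 1 start each of CDK6 and CDKN2C, which moved in opposite directions with CPI203. They are written 5′ to 3′ in the direction of the gene, and bases that any annotated exon of the same gene covers are left out. Capitals mark GGGCGG or its complement CCGCCC (the GC box, a binding motif of SP1) and, in CDKN2C, CACGTG (the E-box bound by MYC and MAX).
CDKN1A (chr6:36678464-36678657, plus strand): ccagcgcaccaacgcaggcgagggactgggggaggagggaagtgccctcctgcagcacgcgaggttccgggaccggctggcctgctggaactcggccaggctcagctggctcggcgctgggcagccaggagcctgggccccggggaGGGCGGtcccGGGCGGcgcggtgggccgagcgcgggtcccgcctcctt
CDKN2D (chr19:10569060-10569229, minus strand): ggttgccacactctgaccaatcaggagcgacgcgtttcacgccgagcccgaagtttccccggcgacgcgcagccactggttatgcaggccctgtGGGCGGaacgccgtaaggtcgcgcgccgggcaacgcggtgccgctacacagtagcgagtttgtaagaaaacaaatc
CCNE1 (chr19:29811741-29811897, plus strand): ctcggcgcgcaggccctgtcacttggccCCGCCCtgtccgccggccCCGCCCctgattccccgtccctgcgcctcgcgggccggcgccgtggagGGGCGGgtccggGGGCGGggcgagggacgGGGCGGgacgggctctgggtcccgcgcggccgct
CDK6 (chr7:92836595-92836823, minus strand): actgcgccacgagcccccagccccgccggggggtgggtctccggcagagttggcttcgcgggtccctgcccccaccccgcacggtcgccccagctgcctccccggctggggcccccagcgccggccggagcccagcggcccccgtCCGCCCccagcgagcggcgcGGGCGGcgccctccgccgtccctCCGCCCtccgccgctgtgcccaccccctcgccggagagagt
CDKN2C (chr1:50960495-50960744, plus strand): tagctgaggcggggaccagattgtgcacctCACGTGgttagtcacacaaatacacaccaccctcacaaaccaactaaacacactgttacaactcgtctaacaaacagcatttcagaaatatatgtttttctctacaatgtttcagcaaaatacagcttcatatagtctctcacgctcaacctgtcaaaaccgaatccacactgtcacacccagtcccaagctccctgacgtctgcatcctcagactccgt

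The printed stretches differ in length, so GC boxes were counted in the whole windows of 300 bases. CCNE1 held 7, CDKN1A 4, CDKN2D 3 and the first start of CDK6 3. The first start of CDKN2C held 0, its second 6. GGGCGG was present in 45.0% of all 35116 promoter windows of that length, so it is a common feature. CACGTG was present in 7.26% of all promoters. CDK4 held 3 copies of it, at −216, −196 and −101 from its start, beside 3 GC boxes at −175, −127 and −73. Of the starts of CDKN2C, the first held CACGTG at −220 and the third at −69, and the first start of CDK6 held it at 30. TATAAA, found in 11.5% of all promoters, and the E2F letters TTTGGCGC (0.652%) and TTTCGCGC (0.515%) were not in any of the 13 windows, which says only that these letters are not there.

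**Figure D1:**
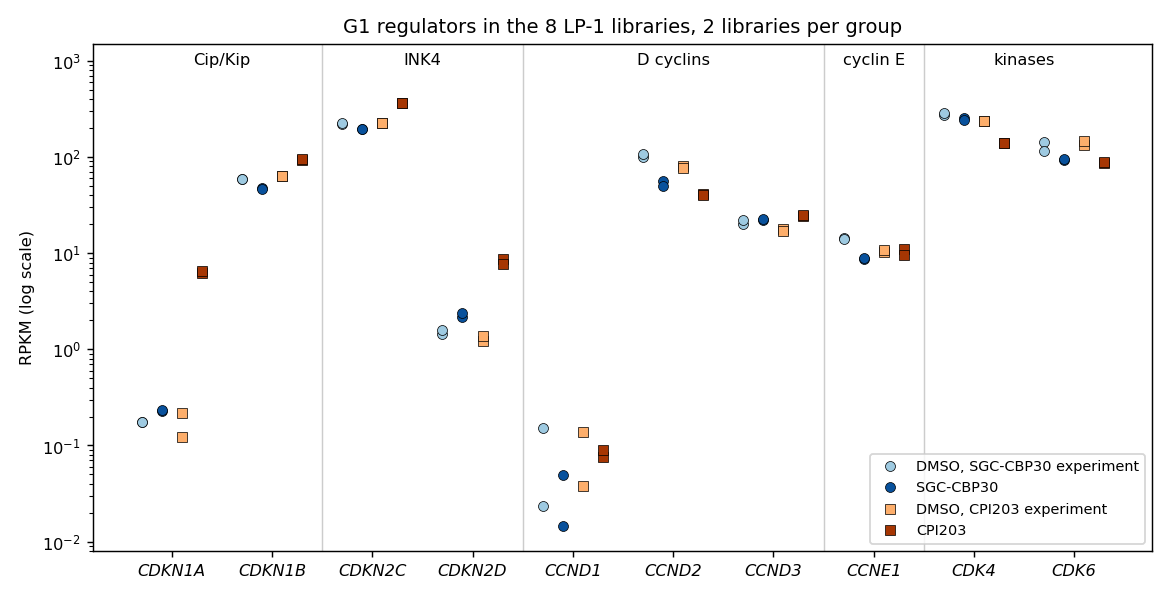
Levels of the 10 genes in each library. The y axis is RPKM on a log scale, every point is a library, colors and shapes mark the 4 groups of 2 libraries, and vertical lines separate the protein families. CDKN1A sits between 0.121 and 0.233 RPKM in all libraries except those with CPI203, at 6.17 and 6.57, and CDKN2C, CDK4 and CDK6 are among the most abundant throughout.

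In DMSO, transcripts of the 10 genes differed widely in level. In the DMSO pair of SGC-CBP30 the order by mean RPKM was CDK4 (280.2), CDKN2C (222.0), CDK6 (129.7), CCND2 (104.5), CDKN1B (58.9), CCND3 (21.1), CCNE1 (14.4), CDKN2D (1.5), CDKN1A (0.174) and CCND1 (0.0882). No neighbors in this order overlapped in their 2 libraries. The DMSO pair of CPI203 gave the same order, and only CDKN1A and CCND1 overlapped there. Thus transcripts of CDK4, CDKN2C, CDK6 and CCND2, a D-type cyclin gene other than CCND1, dominated the set before treatment. The CDKN1A transcript was barely detected, and protein was not measured here. With CPI203 the order changed, as CDKN2C (365.1) stood above CDK4 (140.3) and CDKN1B (94.6) above CDK6 (87.1), without overlap of the libraries.

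Each compound was compared with its own DMSO by limma on log2(RPKM + 0.1), across the 14732 genes that averaged 1 RPKM or more over the 8 libraries. A gene is called when its Benjamini-Hochberg adjusted p is under 0.05 and its fold change is at least 1.5-fold, which is 0.585 on the log2 scale. Of the 10 genes 9 passed the filter on the mean. CDKN1A did so only through the CPI203 libraries (0.191 RPKM without them), the other 8 also without CPI203, and CCND1 did not pass and was not tested. With SGC-CBP30, 2 of the 9 were called, both lower (CCND2 and CCNE1), where 7.26% of all genes tested were called in either direction. Of all genes 3.47% were called higher and 3.79% lower. By adjusted p alone, 1 of the 9 was higher and 6 were lower, against 25.6% and 14.8% of all genes. With CPI203 the count leaves out CDKN1A, which was chosen on this contrast. Of the other 8 genes 5 were called, 2 higher (CDKN2C and CDKN2D) and 3 lower (CCND2, CDK4 and CDK6), where 27.8% of all genes were called, 13.4% higher and 14.4% lower. By adjusted p alone, 4 of the 8 were higher and 3 lower, against 31.1% and 33.1% of all genes. Leaving CDKN1A out with SGC-CBP30 as well gave the same counts among 8 genes. The median change of the 9 with SGC-CBP30 was −0.18, and −0.25 for the 8 without CDKN1A. That of the 8 with CPI203 was 0.24, beside medians of 0.07 and −0.015 over all genes for the respective compounds. With 2 libraries per group, the smallest p that exact permutation of 1 gene's values allows is 0.333, so that each call rests on the spread shared over all genes.

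**Figure D2:**
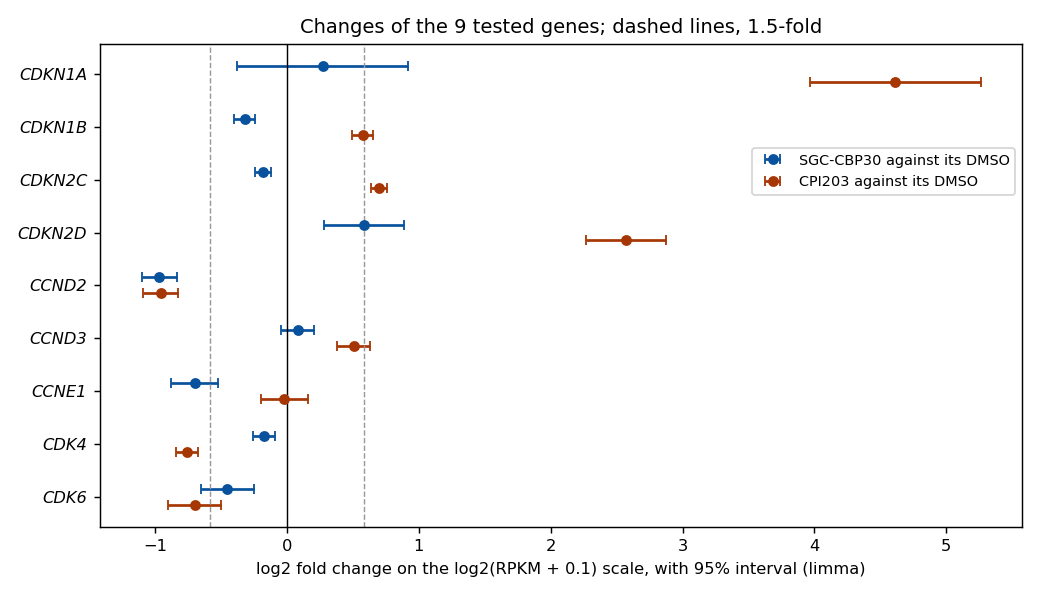
Change of each tested gene with each compound. The x axis is the log2 fold change on the log2(RPKM + 0.1) scale, points are limma estimates, bars their 95% intervals, and dashed lines mark 1.5-fold. The bar of CDKN1A with CPI203 is a description and no test, because CDKN1A was chosen on that contrast. CCND2 lies near −0.96 for both compounds, whereas CDKN1B and CDKN2C fall on opposite sides of 0 for SGC-CBP30 and CPI203.

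Among the Cip/Kip inhibitors, CDKN1A (ENSG00000124762, chr6:36644304-36655116 in hg19) was at 0.217 and 0.121 RPKM in DMSO and at 6.17 and 6.57 with CPI203. The mean level was 0.169 ± 0.0679 (SD, n = 2) in DMSO and 6.37 ± 0.284 (n = 2) with CPI203, a 37.7-fold difference in level. On the log2(RPKM + 0.1) scale the difference was 4.61 with a standard error of 0.29, and 0 of the 14732 genes tested had a larger increase. The size depends on the scale, being 2.66 with a pseudocount of 1 and 5.22 after quantile normalization. CDKN1A had 0.174 and 0.175 RPKM in the DMSO of SGC-CBP30 and 0.229 and 0.233 with SGC-CBP30. The treated pair was the higher, but all 4 values were low, and the change of 0.27 ± 0.29 (SE) did not pass the test (limma, adjusted p = 0.489, 95% interval −0.38 to 0.92). CDKN1A entered this test only through its CPI203 libraries, and at so low a level the test cannot decide whether it responded to SGC-CBP30.

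CDKN1B (ENSG00000111276, chr12:12867991-12875305), which encodes p27, had 58.9 and 58.9 RPKM in DMSO and 47.6 and 46.5 with SGC-CBP30. It had 63.7 and 63.3 in DMSO and 93.4 and 95.8 with CPI203. The groups did not overlap in either experiment, and the directions were opposite. CDKN1B fell by 0.32 (SE 0.04) on the log2 scale with SGC-CBP30 (adjusted p = 0.000153), and rose by 0.57 (SE 0.04) with CPI203 (adjusted p = 6.28e-07). Both changes were below 1.5-fold, the latter by a small margin (1.49-fold in level), so neither was called.

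Of the INK4 inhibitors, CDKN2C (ENSG00000123080, chr1:51426416-51440305) was by far the more abundant. It had 219.9 and 224.1 RPKM in DMSO and 196.7 and 195.1 with SGC-CBP30, and 224.0 and 225.6 in DMSO and 367.2 and 362.9 with CPI203. Replicates lay close together, and neither treated pair overlapped with its control. CDKN2C fell by 0.18 (SE 0.03) with SGC-CBP30 (adjusted p = 0.000889, not called) and rose by 0.70 (SE 0.03) with CPI203 (adjusted p = 4.01e-08, called).

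CDKN2D (ENSG00000129355, chr19:10677137-10679735), the INK4 gene with the low level, behaved differently, since it was higher with both compounds. Its values were 1.44 and 1.57 RPKM in DMSO against 2.19 and 2.41 with SGC-CBP30, and 1.23 and 1.36 in DMSO against 8.74 and 7.65 with CPI203. CDKN2D rose by 0.58 (SE 0.14) with SGC-CBP30 (adjusted p = 0.00757), which fell just short of 1.5-fold on this scale although the ratio of the mean levels was 1.53. Without the second SGC-CBP30 replicate this change was 0.52 and did not pass (adjusted p = 0.0619), whereas it was called without the first (0.65, adjusted p = 0.0245) and against all 4 DMSO libraries (0.69, adjusted p = 0.0174). With CPI203 it rose by 2.57 (SE 0.14, adjusted p = 2.22e-07), or 6.36-fold in level, and 43 of all genes tested had a larger increase.

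Of the D-type cyclins, which activate CDK4 and CDK6 in response to growth signals, CCND2 (ENSG00000118971, chr12:4382937-4414516) was lower with both compounds. CCND2 stood at 101.2 and 107.8 RPKM in DMSO and at 56.5 and 50.3 with SGC-CBP30. In the CPI203 experiment it stood at 81.3 and 76.9 in DMSO and at 41.2 and 40.0 with the compound. All treated libraries were below all DMSO libraries. CCND2 fell by 0.97 (SE 0.06) on the log2 scale with SGC-CBP30 (adjusted p = 4.11e-06) and by 0.96 (SE 0.06) with CPI203 (adjusted p = 5.88e-07). A larger decrease than that of CCND2 was seen for 219 genes with SGC-CBP30 and for 995 with CPI203.

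CCND3 (ENSG00000112576, chr6:41902670-42018095) had 20.3 and 21.9 RPKM in DMSO and 22.0 and 22.6 with SGC-CBP30, a change of 0.08 (SE 0.06) that did not pass the test (adjusted p = 0.273, 95% interval −0.04 to 0.21). It had 17.7 and 16.9 in DMSO and 24.2 and 24.9 with CPI203. The CPI203 pair was clearly separate from its control, and CCND3 rose by 0.50 (SE 0.06, adjusted p = 2.8e-05), below the 1.5-fold limit. CCND1 (ENSG00000110092, chr11:69455854-69469242) did not exceed 0.153 RPKM in any library. Its values were 0.153 and 0.0237 in DMSO and 0.0147 and 0.0488 with SGC-CBP30, and 0.137 and 0.038 in DMSO and 0.0766 and 0.0901 with CPI203. Treated and control values overlapped in both experiments, and these levels correspond to few reads, so no difference was detectable at this depth. The annotated position of CCND1 overlaps that of ORAOV1, which had a mean of 15.1 RPKM.

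CCNE1 (ENSG00000105173, chr19:30302804-30315215), the cyclin E1 gene and an E2F target, was lower with SGC-CBP30. Its values were 14.5 and 14.2 RPKM in DMSO and 8.72 and 8.86 with SGC-CBP30, and the replicates differed far less than the groups. CCNE1 fell by 0.70 (SE 0.08, adjusted p = 0.000171), and 413 genes had a larger decrease. In the CPI203 experiment CCNE1 had 10.3 and 10.7 in DMSO and 11.1 and 9.54 with the compound. The groups overlapped, and the change was −0.02 (SE 0.08, adjusted p = 0.818, 95% interval −0.20 to 0.15). CCNE1 also differed between the 2 DMSO pairs. Against all 4 DMSO libraries, an alternative control, the change with SGC-CBP30 was −0.48 and no longer passed the test (adjusted p = 0.0818).

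Of the kinases, CDK4 (ENSG00000135446, chr12:58141509-58149796) was at 274.3 and 286.1 RPKM in DMSO and at 256.8 and 240.2 with SGC-CBP30. It was at 238.8 and 236.5 in DMSO and at 140.7 and 139.9 with CPI203. CDK4 fell by 0.17 (SE 0.04) with SGC-CBP30 (adjusted p = 0.00547, not called) and by 0.76 (SE 0.04) with CPI203 (adjusted p = 1.54e-07, called). The decrease with SGC-CBP30 no longer passed the adjusted p after quantile normalization (−0.07, adjusted p = 0.133), against all 4 DMSO libraries (−0.05, adjusted p = 0.687) or without the second SGC-CBP30 replicate (−0.13, adjusted p = 0.0534). The CPI203 replicates were nearly equal. The position of CDK4 overlaps TSPAN31 (mean 38.0 RPKM) and MARCH9 (3.43 RPKM), and since the strand setting of the counting is not given in the sources used here, shared reads cannot be assigned.

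CDK6 (ENSG00000105810, chr7:92234234-92465908), the other partner of D cyclins, had the widest spread between replicates of the abundant genes. It had 144.7 and 114.7 RPKM in the DMSO of SGC-CBP30 against 92.1 and 95.8 with the compound, and 135.0 and 148.4 against 86.2 and 88.0 with CPI203. Treated libraries were lower than all DMSO libraries. CDK6 fell by 0.46 (SE 0.09) with SGC-CBP30 (adjusted p = 0.00346, not called) and by 0.70 (SE 0.09) with CPI203 (adjusted p = 7.97e-05, called). Without the second DMSO replicate of the SGC-CBP30 experiment, the lower value, CDK6 fell by 0.62 and was called, as was CDKN2D at 0.64, so that 4 genes of the set were called. Without the first, higher DMSO replicate CDK6 fell by 0.29 (adjusted p = 0.0094). With no filter on low values, the adjusted p of CDK6 with SGC-CBP30 was 0.0639.

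Because the RPKM scale is per length, levels within a family can be summed. The 3 D-type cyclins together were at 121.7 and 129.7 RPKM in DMSO and 78.5 and 72.9 with SGC-CBP30, and at 99.1 and 93.8 in DMSO and 65.5 and 65.0 with CPI203. CCND2 made up 83.2% and 83.1% of this sum in DMSO and 71.9% and 68.9% with SGC-CBP30. With CPI203 its share was 62.9% and 61.6%, against 82.0% in both DMSO libraries. CCND2 thus remained the main D-type cyclin in every library, and CCND3 held nearly all of the remainder. The 2 kinases summed to 419.0 and 400.8 RPKM in DMSO and 348.9 and 336.1 with SGC-CBP30, and to 373.7 and 384.8 in DMSO and 226.9 and 227.9 with CPI203. CDKN2C and CDKN2D summed to 221.4 and 225.6 in DMSO and 198.9 and 197.5 with SGC-CBP30, and to 225.2 and 227.0 in DMSO and 376.0 and 370.6 with CPI203. With the other INK4 genes, CDKN2A and CDKN2B, included after the values were seen, the sum was 427.5 and 425.0 in DMSO and 351.5 and 336.2 with SGC-CBP30, and 386.2 and 377.5 in DMSO and 500.3 and 504.3 with CPI203. CDKN1A and CDKN1B summed to 59.1 and 59.0 in DMSO and 47.8 and 46.7 with SGC-CBP30, and to 63.9 and 63.4 in DMSO and 99.5 and 102.3 with CPI203. Even with CPI203, CDKN1A made up only 6.2% and 6.42% of that Cip/Kip sum. The sum leaves out CDKN1C, the remaining Cip/Kip gene. CDKN1C had 2.71 and 2.51 RPKM in DMSO and 2.04 and 1.89 with SGC-CBP30. In the CPI203 experiment it had 5.27 and 4.81 in DMSO and 6.96 and 7.69 with the compound.

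**Figure D3:**
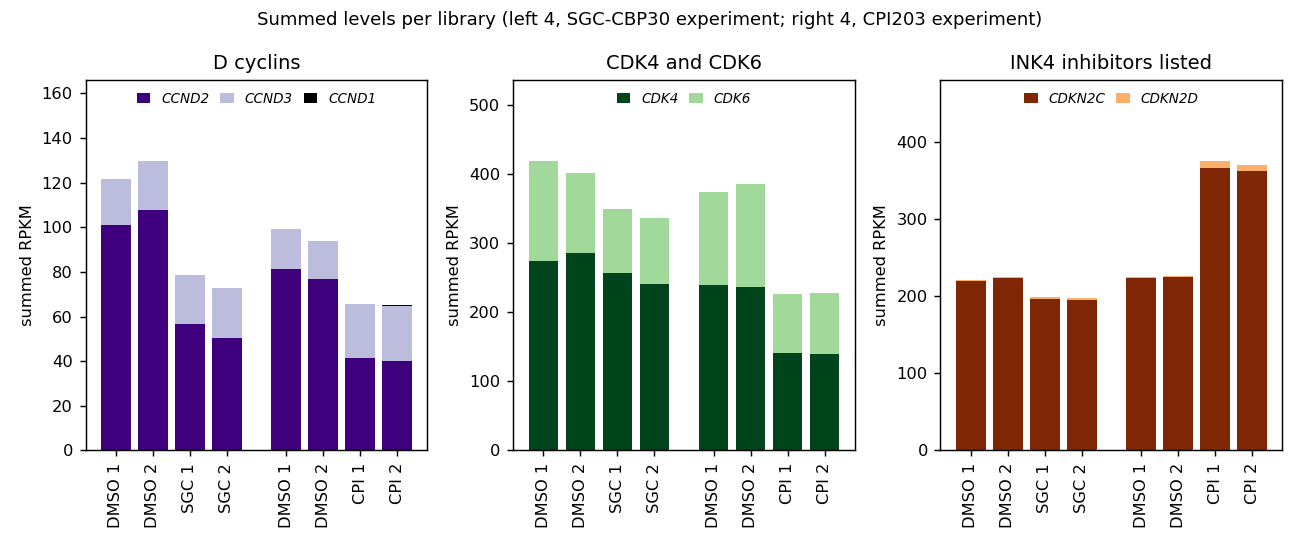
Summed RPKM of the D cyclins, of CDK4 with CDK6, and of CDKN2C with CDKN2D. Each bar is a library, colors mark the genes, and the y axis starts at 0. The D cyclin and kinase sums are lower in treated than in DMSO libraries of the same experiment, while CDKN2C and CDKN2D together reach 376.0 and 370.6 with CPI203.

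The difference between the responses was tested as CPI203 minus SGC-CBP30, each relative to its own DMSO. CDKN1A, chosen for its response, had a difference of 4.34 (SE 0.41) and is left out of the count. Of the other 8 genes 6 differed at an adjusted p under 0.05, 5 with the more positive change in CPI203 and 1 with the more negative, and 50.3% of all genes tested differed by this measure. The median difference of the 8 was 0.55, beside −0.06 over all genes. The largest tested difference was that of CDKN2D, 1.99 (SE 0.19, adjusted p = 2.51e-05), which rose with both compounds but more with CPI203. CDKN1B and CDKN2C, with changes of opposite sign, differed by 0.90 (SE 0.05, adjusted p = 1.29e-06) and 0.88 (SE 0.04, adjusted p = 3.52e-07). CCNE1 differed by 0.68 (SE 0.11, adjusted p = 0.000754) and CCND3 by 0.42 (SE 0.08, adjusted p = 0.00154). For CCNE1 the DMSO means differed as well, 14.4 RPKM for SGC-CBP30 and 10.5 for CPI203, and the treated means were 8.79 and 10.3. CDK4 fell more with CPI203, the difference being −0.59 (SE 0.05, adjusted p = 1.75e-05). For CCND2 the difference was 0.01 (SE 0.08, adjusted p = 0.926), with a 95% interval of −0.18 to 0.20. For CDK6 it was −0.24 (SE 0.13, adjusted p = 0.136), with an interval of −0.53 to 0.04 that includes 0. Without the first DMSO replicate of the SGC-CBP30 experiment, the higher of that pair, it was −0.41 and passed the test (adjusted p = 0.00299).

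The DMSO pairs of the experiments were compared as well, because the responses are relative to them. At an adjusted p under 0.05, CCND2 (−0.40), CCNE1 (−0.45), CCND3 (−0.29) and CDK4 (−0.24) were lower in the DMSO of the CPI203 experiment, and CDKN1B (0.11) was higher. The CDKN1B difference passed by a narrow margin (adjusted p = 0.036), and did not pass under median scaling (0.0678) or without any 1 of the 4 DMSO libraries (0.0913 to 0.115). That is 4 of 9 lower and 1 of 9 higher, against 21.5% and 20.3% of all genes. At 1.5-fold, limma called 0 of the 9 (5 had an unadjusted p under 0.05), against 7.84% of all genes. The median over the 9 was −0.20, and −0.22 without CDKN1A, beside 0.01 over all genes. The culture, the library series and the DMSO itself cannot be told apart in this contrast.

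Other genes of G1 control were described from 6 lists, whose genes had been chosen with earlier results of these data known. Their counts are to be read against the shares of all genes past an adjusted p of 0.05, 25.6% higher and 14.8% lower with SGC-CBP30 and 31.1% higher and 33.1% lower with CPI203, and their medians against 0.07 and −0.015. In the Rb and E2F list, 13 of 13 genes were tested. With SGC-CBP30 4 were higher and 2 lower at an adjusted p under 0.05 (list median 0.10), and with CPI203 4 were higher and 7 lower (median −0.33). The 4 of 13 higher is close to the share of all genes for both compounds. The repressor E2F7 was called higher with both compounds, from 5.7 and 5.62 RPKM to 9.16 and 9.03 with SGC-CBP30 (0.67, adjusted p = 0.000332) and from 4.73 and 5.36 to 12.7 and 13.9 with CPI203 (1.38, adjusted p = 6.07e-07). The activator E2F2 was called lower with SGC-CBP30 (−0.66, adjusted p = 2.65e-05). It also fell with CPI203, by less than 1.5-fold (−0.56, adjusted p = 1.19e-05), and the difference between the compounds did not pass the test (adjusted p = 0.285). With CPI203 E2F5 (−1.34, adjusted p = 5.65e-08) and E2F4 (−0.60, adjusted p = 2.17e-06) were called lower, both of them known as repressive E2Fs that act with the pocket proteins.

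The remaining CDK inhibitors were CDKN1C (p57), CDKN2A and CDKN2B (p15). All 3 were lower with SGC-CBP30 at an adjusted p under 0.05 (median −0.40). CDKN2B had 22.2 and 23.4 RPKM in DMSO and 9.41 and 8.61 with SGC-CBP30, and was called lower (−1.33, adjusted p = 1.03e-06). With CPI203, 1 was higher and 1 lower (median 0.08), none was called at 1.5-fold, and CDKN2B had a change of 0.08 (adjusted p = 0.313). The difference between the compounds for CDKN2B was 1.41 (adjusted p = 2.41e-06). CDKN2A stood at 105.6 to 184.0 RPKM over the 8 libraries, and its gene-level value does not separate the p16 from the p14ARF transcript.

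Of 10 genes around CDK2, the kinase that cyclin E activates, 9 were tested. With SGC-CBP30 5 were higher and 1 lower (median 0.17) and none was called, and with CPI203 8 were higher and 1 lower (median 0.26), against 31.1% and 33.1% of all genes. With CPI203, CDK2 itself rose from 38.5 and 38.7 RPKM to 62.1 and 60.1 (0.66, adjusted p = 4.96e-07), and CCNE2, the other cyclin E gene, rose from 12.1 and 14.0 to 22.8 and 21.3 (0.75, adjusted p = 5.69e-05). The DMSO pair of SGC-CBP30 already had CDK2 at 54.9 and 54.5 RPKM, a DMSO difference of −0.50 (limma, adjusted p = 1.59e-05). CCNE2 with SGC-CBP30 went from 14.0 and 12.3 to 18.3 and 20.4 (0.55, adjusted p = 0.00147, not called), opposite in sign to CCNE1. The 12 parts of ubiquitin ligases that act on p21, p27, cyclin D or cyclin E had 1 gene higher and 1 lower with SGC-CBP30 (median −0.004). With CPI203 6 were higher and 4 lower (median 0.08). Called with CPI203 were AMBRA1 (0.86), the adaptor that targets D-type cyclins, and FBXO31 (0.60), both higher, and FBXO4 (−1.41) and CUL4A (−0.64), both lower.

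In the list of p53, MDM2 and p53 targets other than CDKN1A, 26 of 28 genes were in the table and 24 were tested. With SGC-CBP30 7 were higher and 5 lower (median 0.02). With CPI203 12 were higher and 9 lower (median 0.25), against 31.1% and 33.1% of all genes. Of these 10 and 4 were called, against 13.4% and 14.4%. TP53INP1 went from 30.1 and 31.0 RPKM to 95.5 and 95.3 with CPI203 (1.64, adjusted p = 1.8e-08), and from 37.1 and 36.6 to 22.0 and 24.7 with SGC-CBP30 (−0.66, adjusted p = 2.94e-05). SESN2 rose by 1.18 with CPI203 (adjusted p = 7.44e-07), whereas AEN fell by 2.34 (adjusted p = 2.69e-09) and PLK3 by 1.60 (adjusted p = 3.16e-05). The list was thus divided in direction with CPI203. The death receptor gene FAS fell by 0.87 with SGC-CBP30 (adjusted p = 9.47e-05) and by 1.06 with CPI203 (adjusted p = 4.28e-06), and the difference did not pass the test (adjusted p = 0.243). FAS went from 22.6 and 22.9 RPKM to 12.7 and 12.2 with SGC-CBP30, and from 11.1 and 13.4 to 6.06 and 5.59 with CPI203. The DMSO pairs thus differed by about as much as treated and control (−0.89, limma, adjusted p = 6.78e-05). With SGC-CBP30 ZMAT3 rose by 0.76 (adjusted p = 0.013). All 20 S phase genes under E2F were tested. With SGC-CBP30 9 were higher and 2 lower (median 0.10), with no change beyond 0.25, and none was called. With CPI203 9 were higher and 4 lower (median 0.02), and RRM2, a subunit of ribonucleotide reductase, was called higher (0.86, adjusted p = 5.64e-08) while UNG was called lower (−0.79, adjusted p = 1.49e-07). In the DMSO of the CPI203 experiment 16 of the 20 were lower than in the other DMSO at an adjusted p under 0.05 (median −0.28), against 21.5% of all genes and a median of 0.01. RRM2 was among these 16 (−0.40).

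**Figure D4:**
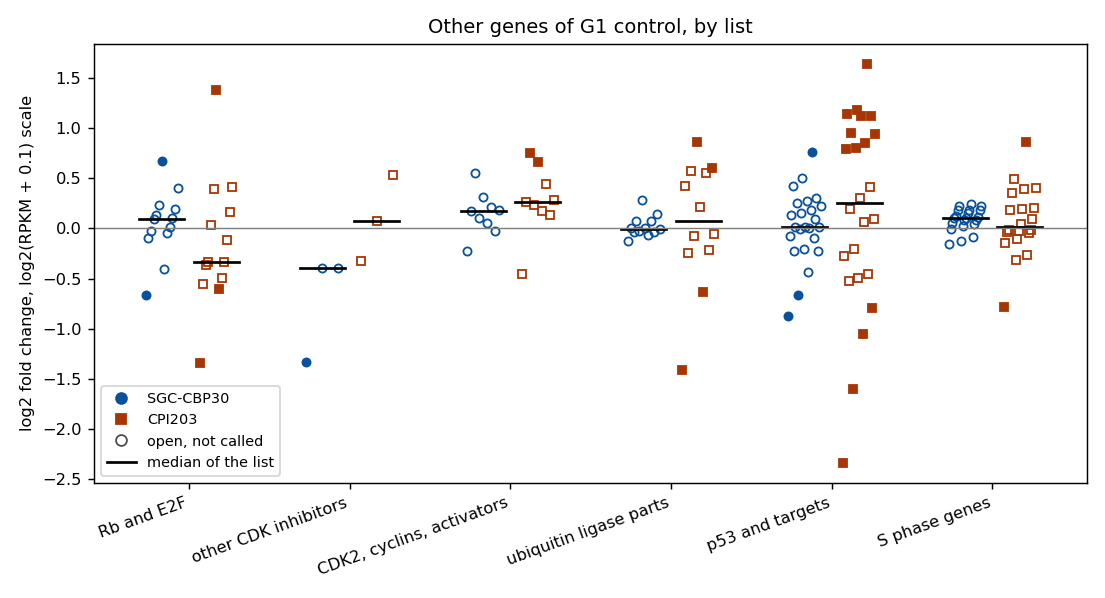
Change of the genes in each of the 6 lists. The y axis is the log2 fold change on the log2(RPKM + 0.1) scale, circles stand for SGC-CBP30 and squares for CPI203, filled symbols are called genes, and black bars are list medians. With CPI203 the p53 list spreads from −2.34 to 1.64, while most S phase genes lie close to 0 with both compounds.

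The genes with a profile closest to that of CDKN1A were sought by Euclidean distance over the 8 libraries, on log2 values centered on each gene. The 5 nearest were the histone genes HIST2H3C (distance 0.595), HIST2H3A (0.64), HIST1H3B (1.17), HIST1H2BF (1.39) and HIST1H1E (1.39). HIST2H3C, for example, had 1.18 and 0.946 RPKM in DMSO and 20.7 and 21.5 with CPI203. HIST2H3A had the same values in these 4 libraries, and the near-identical copies cannot be told apart by their reads. The distance is dominated by the CPI203 libraries, since CDKN1A varied little among the other 6. Like CDKN1A, HIST1H2BF passed the filter on the mean only through the CPI203 libraries (0.278 RPKM without them). HIST1H1E was also higher with SGC-CBP30, at 1.85 and 2.37 RPKM against 1.18 and 1.05 in its DMSO.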

How the data were processed

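RNA was prepared from LP-1 cells on silica columns with DNase treatment and sequenced and mapped by a service provider. The authors deposited RPKM per gene. TopHat 1.4.1, Cufflinks and the build hg19 are named in the submitters' processing notes, and library kit, strand and annotation release are not given in the sources used here. The deposited table holds 24 further columns of other libraries, which were not used, and 27 of its 63129 genes had a missing value.

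Values were used without further scaling (totals 481842 to 498947 RPKM per library). Low RPKM values of single-exon genes of at least 800 bases were compared to estimate depth. Of these values 66.3% to 80.8% lay within 0.1 of a whole read, too few to recover counts, so no count test was run. limma 3.58.1 in R 4.3.3 (lmFit, contrasts, eBayes with trend) was run on log2(RPKM + 0.1) for genes averaging 1 RPKM or more, with 4 group means, 4 residual and 5.5 prior degrees of freedom and Benjamini-Hochberg adjustment over all 14732 genes. This scale understates the change of low genes such as CDKN1A. The fit was tested on simulated data with known changes. Groups came from the sample titles, and DMSO libraries were matched to compounds by library series. The study calls the samples biological replicates.

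The members and lists were chosen with earlier results of these data known. Named were all 10 members, from each list at most the 2 largest called increases and decreases per compound, and the 5 genes nearest to CDKN1A. CCNE2 with SGC-CBP30, E2F2 and FAS beyond that rule, and CDKN1C, CDKN2A and CDKN2B where not called, were named after their values were seen. Motifs were searched with Python 3.11.15 in RefSeq promoters (GRCh38.p14), whereas gene positions are those deposited in hg19. Alternatives were other pseudocounts, filters, scalings, fold limits, controls and a replicate block, and leaving out each library.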

Additional observations from a re-analysis of the deposited data

How the results depend on the processing

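Of 604 values recomputed under alternatives, 582 were counted as unchanged. This means the same direction and the same call (adjusted p, with 1.5-fold except in the difference). For CDKN1A with CPI203 and in the difference it means the same direction and an estimate within 1 standard error. A change under 1.5-fold that lost its adjusted p, as CDK4 did with SGC-CBP30, still counts as unchanged. Other filters, a fit without the trend, the replicate block and separate fits of each experiment cannot alter a gene's fold change. Leaving out a library outside the comparison cannot do so either. In those rows only the standard error and adjusted p could move, so the total does not measure how stable the fold changes are. The number of genes called with SGC-CBP30 was 1070, and 667 with a pseudocount of 1, 505 with a mean of at least 5 RPKM, 516 against all 4 DMSO libraries, 5945 without a minimum fold and 278 at 2-fold. Of the genes studied, SGC-CBP30 called 7 without a minimum fold and 0 at 2-fold. For CPI203 the 4095 genes became 2590 with a mean of at least 5 RPKM, 9459 without a minimum fold and 1558 at 2-fold. Of the genes studied, CDKN2D and CDKN1A were left at 2-fold. Counts of the genes studied here include CDKN1A, also for CPI203 (6 in all) and for the difference (7). Without CDKN1A, which was chosen on these contrasts, they were 5 and 6 of 8. At 2-fold the difference between the compounds left CDKN2D (1.99) beside CDKN1A (4.34), and the share of all genes at that limit was not computed. Between the DMSO pairs, 5 were past the adjusted p without a minimum fold. The CDKN1A change with CPI203 was 2.66 with a pseudocount of 1 and 5.22 after quantile normalization.

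When each library was left out in turn, 902 to 1079 genes were called with SGC-CBP30 and 4033 to 4160 with CPI203, and of the genes studied 2 to 4, 6 to 7, and 7 to 8 for the difference. The lone library of a group is then assumed to vary like the others. Directions that turned belonged to values that had not passed the test: CCNE1 with CPI203 (−0.133 to 0.0873), the CCND2 difference (−0.0733 to 0.0944), and the DMSO differences of CDKN1A (−0.31 to 0.21), CDK6 (−0.0326 to 0.302) and, after quantile normalization, CDKN2C (−0.0131). CDKN1B with CPI203 passed 1.5-fold after quantile normalization (0.62), against all DMSO libraries (0.63) and without the first CPI203 replicate (0.59).

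The study describes its DMSO controls as paired, but replicate numbers were not seen to pair the samples. Deviations of same-numbered libraries correlated at −0.17 for SGC-CBP30 with its DMSO and −0.04 for CPI203 with its DMSO, and the highest value, 0.24, was between SGC-CBP30 and the DMSO of the other experiment. With the replicate number as a block, 1057 and 4120 genes were called, and 2 and 6 of the genes studied. With the numbers crossed in the SGC-CBP30 experiment, an alternative chosen after seeing the data, 1076 and 4113 genes were called. Depth limits CCND1 in every library and CDKN1A outside CPI203, whose values rest on few reads.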
